A study of Mus musculus with 6 samples.

Results

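Striatal projection neurons, also called medium spiny neurons, make up most of the striatum, the large nucleus that lies under the cortex. A set of 31 genes that mark these neurons was followed in RNA-seq libraries of mouse cerebral cortex, out of 33274 gene rows in the deposited counts. The members were taken by gene symbol from a list, each matched 1 row, and all 31 passed the filter on low counts. From general knowledge of brain expression, 21 were called nearly confined to striatum and 10 were called genes that cortical neurons also express. Of the 21, 9 were marked as borderline because other neurons or tissues express them at a lower level (Ppp1r1b, Gnal, Rasd2, Adcy5, Actn2, Rasgrp2, Gpr52, Nexn and Ecel1).

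Cerebral cortex was taken from 6 wild-type females of the outbred ICR stock when they were 6 weeks old. Their grandsires (F0) had been injected under the skin for 21 days with saline, 10 mL/kg, or with methylphenidate, 15 mg/kg, a drug that slows the reuptake of dopamine and noradrenaline, and were afterwards mated with untreated females. One F1 male per litter was mated with an untreated female, so that the F2 mice sampled here were never dosed. Each lineage had 3 libraries of 23896752 to 28120640 counts, and the labels do not tie animals to a litter, an F1 father or a grandsire.

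Projection neurons of the striatum receive dopamine from the midbrain and glutamate from the cortex. Those of the direct pathway carry the D1 dopamine receptor, which raises cyclic AMP (cAMP) through the G protein Golf and the adenylyl cyclase type made by Adcy5. Those of the indirect pathway carry the D2 dopamine receptor, which lowers cAMP, together with the adenosine receptor made by Adora2a, which raises it. In both types phosphodiesterases break cAMP down, and protein kinase A acts on a shared set of phosphoproteins.

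Because many of the members act in cAMP signalling, the start regions of 4 of them are shown, as RefSeq gives them in build GRCm38.p6. The counts were made on GRCm39, so these coordinates belong only to the sequences. Each window runs from 250 bases before to 50 bases after the annotated start, written 5′ to 3′ on the strand of the gene. Capitals mark TGACG, the core of the cAMP response element, on either strand. Lrrc10b (chr19:10457398-10457697, minus strand) is shown for the largest log2 fold change among the members. Gpr6 (chr10:41072241-41072540, minus strand) is shown for the only full element TGACGTCA found, in which the cores of both strands overlap. Rgs9 (chr11:109298132-109298431, minus strand) and Rgs4 (chr1:169747593-169747892, minus strand) are shown as 2 genes of one family whose log2 fold changes had opposite signs.
Lrrc10b: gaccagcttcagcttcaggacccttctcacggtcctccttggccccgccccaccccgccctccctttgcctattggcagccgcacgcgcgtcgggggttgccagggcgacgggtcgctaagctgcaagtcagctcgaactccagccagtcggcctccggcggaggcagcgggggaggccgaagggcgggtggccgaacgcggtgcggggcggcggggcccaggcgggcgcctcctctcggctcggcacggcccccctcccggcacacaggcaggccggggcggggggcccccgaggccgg
Gpr6: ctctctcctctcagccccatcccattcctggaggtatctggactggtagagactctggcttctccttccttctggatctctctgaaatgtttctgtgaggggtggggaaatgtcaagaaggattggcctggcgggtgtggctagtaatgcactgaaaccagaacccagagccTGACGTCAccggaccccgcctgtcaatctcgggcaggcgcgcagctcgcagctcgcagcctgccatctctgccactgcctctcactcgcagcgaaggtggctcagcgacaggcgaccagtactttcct
Rgs9: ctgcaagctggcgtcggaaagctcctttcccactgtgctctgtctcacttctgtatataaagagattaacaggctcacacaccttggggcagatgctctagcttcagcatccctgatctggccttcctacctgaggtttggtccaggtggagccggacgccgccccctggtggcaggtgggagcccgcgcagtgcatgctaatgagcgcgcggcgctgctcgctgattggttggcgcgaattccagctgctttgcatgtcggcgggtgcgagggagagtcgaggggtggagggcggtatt
Rgs4: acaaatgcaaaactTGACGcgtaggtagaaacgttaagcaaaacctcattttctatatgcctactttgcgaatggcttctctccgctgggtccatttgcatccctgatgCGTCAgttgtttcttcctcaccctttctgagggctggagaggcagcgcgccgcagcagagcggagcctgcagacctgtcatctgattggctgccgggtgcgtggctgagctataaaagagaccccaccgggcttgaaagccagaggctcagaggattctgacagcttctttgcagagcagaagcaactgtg

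Of the 31 members, 20 were matched in the RefSeq table, with 35 windows in all. TGACG on either strand was in 6 of these windows, from Arpp21, Gng7, Gpr6 and Rgs4, and in 20.9% of the 32544 different windows of all genes. The full element was in 1 member window and in 1.8% of all windows. TGACAG, a site for MEIS homeodomain proteins, was in 11 member windows, from Arpp21, Gng7, Gpr6, Pde1b, Rasgrp1 and Rgs4, against 19.1% of all windows. A member can have several windows that overlap, so windows are not separate cases. Counted by gene, the core was found in 1 of 11 nearly confined members with a window and in 3 of 9 of the others.

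Members nearly confined to striatum lay higher in the methylphenidate lineage than in the saline lineage, and members that cortical neurons also express lay nearer to it. All 21 nearly confined members had a log2 fold change above 0 (methylphenidate minus saline), with a median of 0.96 and a range of 0.03 to 2.79. The 2 smallest, of Gpr149 and Strip2, changed sign when single libraries were left out, Gpr149 to -0.18 without saline replicate 2 and -0.11 without methylphenidate replicate 1, and Strip2 to -0.08 without saline replicate 1 or 3. The 10 others had a median of 0.17, with 8 above 0 and 2 below. Over all 18327 genes tested the median was 0.00, and 50.3% lay above 0. Above 1 were 9 of the 12 members with no mark as borderline, 1 of the 9 borderline members and none of the 10 others, against 1.6% of all genes tested. No test was made of the difference between the sets of members. The p-values below measure only the spread between these 6 libraries. In bulk tissue, more cells of a type and more RNA per cell cannot be told apart.

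No member passed edgeR's quasi-likelihood test at an adjusted p under 0.05 over all genes, where 5 genes or 0.0273% were called, 0.0218% higher and 0.00546% lower. The smallest adjusted p by edgeR among the members was 0.137, for Ecel1. At an unadjusted p under 0.05, 21 members were higher and none lower, against 4.2% of all genes tested higher and 3.31% lower. The groups of libraries did not overlap in 15 members, 14 higher and 1 lower, where 6.97% and 6.51% of all genes did so. By set, the groups did not overlap and lay higher in 9 of 21 nearly confined members and in 5 of the 10 others, so that by this count the sets did not part as they did by fold change. The test limma-voom called none of the members and 0.0273% of all genes, 0.0218% higher. DESeq2 called 5, all higher (Syndig1l, Sh3rf2, Rxrg, Ecel1 and Tmem158), where it called 0.756% of the genes it adjusted, 0.533% higher. Without methylphenidate replicate 2, edgeR called Pde10a (adjusted p = 0.0105) and Ecel1 (adjusted p = 0.0486), both higher, where 0.0636% of genes were called, 0.0477% higher. Without methylphenidate replicate 3 the median of the nearly confined members was 0.52.

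**Figure D1:**
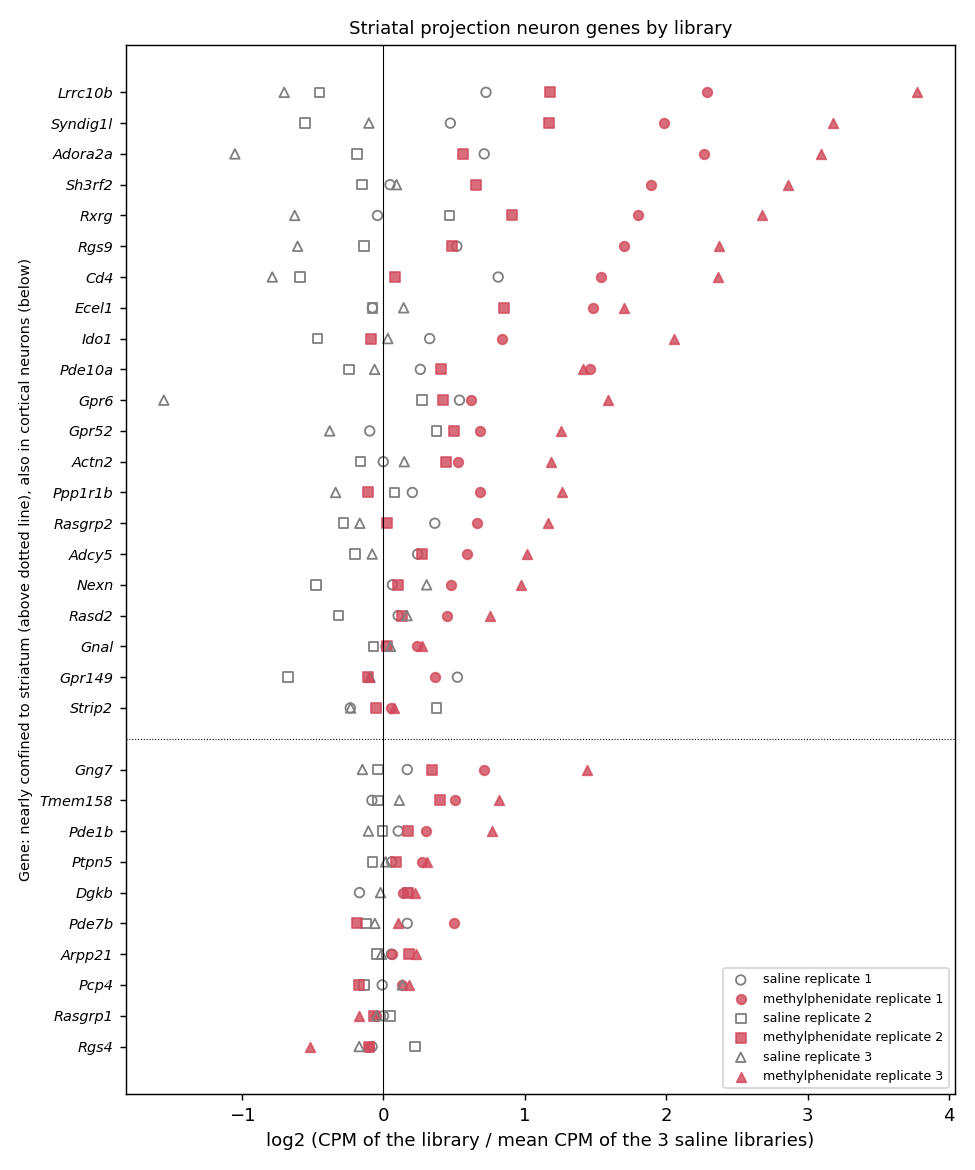
Each row is a gene and each point a library, placed by the log2 ratio of its TMM-scaled CPM to the mean of the 3 saline libraries (open grey, saline; filled red, methylphenidate; circle, square and triangle for replicates 1, 2 and 3). In the upper 21 genes methylphenidate replicate 3 is the highest of its lineage in 19, and replicate 2 the lowest of its lineage in all 21. The lower 10 genes mostly stay nearer to 0, with Gng7, Tmem158 and Pde1b farthest above it. By log2 fold change, Gnal, Gpr149 and Strip2 of the upper genes lie nearer to 0 than these.

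The values below are CPM, counts scaled to the TMM-adjusted library size, in replicates 1, 2 and 3 of each lineage, in that order. The genes that make cAMP behind the D1 and adenosine receptors differed in how far they lay from the saline lineage. Gnal (ENSMUSG00000024524), the alpha subunit of Golf that couples the D1 and adenosine receptors to adenylyl cyclase, had 185, 173 and 189 CPM in the saline libraries and 215, 186 and 220.0 CPM in the methylphenidate libraries. The groups overlapped narrowly, and methylphenidate replicate 2 lay between saline replicates 1 and 3 (a log2 fold change of 0.18 with SE 0.08, edgeR adjusted p = 0.636). Gng7 (ENSMUSG00000048240), the gamma subunit that pairs with it in striatum, had 87.3, 75.7 and 70.0 CPM in the saline libraries and 127, 98.7 and 211 CPM in the methylphenidate libraries. Every methylphenidate library lay above every saline library, with replicate 3 at 2.71 times the saline mean (a log2 fold change of 0.90 with SE 0.23, edgeR adjusted p = 0.316). Gng7 had been placed among the genes of cortical neurons, yet its log2 fold change was the largest of those 10. Adcy5 (ENSMUSG00000022840), the main striatal adenylyl cyclase, had 172, 126 and 137 CPM in the saline libraries and 218, 175 and 293 CPM in the methylphenidate libraries. The groups did not overlap, although methylphenidate replicate 2 stood only just above saline replicate 1 (a log2 fold change of 0.66 with SE 0.17, edgeR adjusted p = 0.353).

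Among the phosphodiesterases, which end the cAMP and cGMP signal, the one most typical of striatum lay farthest from the saline lineage. Pde10a (ENSMUSG00000023868), which these neurons express strongly, had 59.8, 42.1 and 47.8 CPM in the saline libraries and 137, 66.1 and 133 CPM in the methylphenidate libraries. Replicates 1 and 3 of the methylphenidate lineage were at more than 2 times the saline mean, and replicate 2 was above all 3 saline libraries by a small margin (a log2 fold change of 1.17 with SE 0.24, edgeR adjusted p = 0.220). Pde1b (ENSMUSG00000022489), a calmodulin-dependent enzyme also found in cortical neurons, had 142, 131 and 122 CPM in the saline libraries and 162, 149 and 225 CPM in the methylphenidate libraries. Its groups did not overlap, and replicate 3 was again the highest (a log2 fold change of 0.44 with SE 0.14, edgeR adjusted p = 0.517). Pde7b (ENSMUSG00000019990), a cAMP-specific enzyme, had 38.4, 31.3 and 32.7 CPM in the saline libraries and 48.3, 30.0 and 36.6 CPM in the methylphenidate libraries. Here replicate 1 was the highest and replicate 2 the lowest of all 6 libraries, so that the groups overlapped (a log2 fold change of 0.16 with SE 0.16, edgeR adjusted p = 0.870), and the sign turned without methylphenidate replicate 1 (-0.04).

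The substrates of protein kinase A included 1 nearly confined and 2 other members. Ppp1r1b (ENSMUSG00000061718) encodes the dopamine- and cAMP-regulated phosphoprotein that, once phosphorylated, inhibits protein phosphatase 1. It had 130.3, 119 and 89.4 CPM in the saline libraries and 181, 105 and 272 CPM in the methylphenidate libraries. Methylphenidate replicate 2 lay inside the saline range while replicate 3 was at 2.40 times the saline mean (a log2 fold change of 0.72 with SE 0.28, edgeR adjusted p = 0.606), and without replicate 3 its log2 fold change was 0.34. Arpp21 (ENSMUSG00000032503), a second cAMP-regulated phosphoprotein, had 448, 418 and 427 CPM in the saline libraries and 450.0, 489 and 506 CPM in the methylphenidate libraries. Its groups did not overlap, but the nearest libraries, saline replicate 1 and methylphenidate replicate 1, were almost equal (a log2 fold change of 0.16 with SE 0.07, edgeR adjusted p = 0.630). Ptpn5 (ENSMUSG00000030854), a tyrosine phosphatase that acts on glutamate receptors and on the kinase Erk, had 155, 141 and 150.3 CPM in the saline libraries and 179.7, 158 and 185 CPM in the methylphenidate libraries. It was higher in each methylphenidate library than in each saline library by a small step (a log2 fold change of 0.23 with SE 0.07, edgeR adjusted p = 0.553).

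Of the receptors, the adenosine receptor gene showed the widest spread. Adora2a (ENSMUSG00000020178), the mark of indirect-pathway neurons, had 7.58, 4.06 and 2.23 CPM in the saline libraries and 22.2, 6.81 and 39.5 CPM in the methylphenidate libraries. Methylphenidate replicates 1 and 3 stood far above every saline library, whereas replicate 2 lay below saline replicate 1 (a log2 fold change of 2.29 with SE 0.58, edgeR adjusted p = 0.319). Gpr6 (ENSMUSG00000046922), an orphan receptor of the same neurons that raises cAMP without a ligand, had 2.82, 2.34 and 0.662 CPM in the saline libraries and 2.98, 2.60 and 5.85 CPM in the methylphenidate libraries. Saline replicate 3 was low, replicate 3 of the methylphenidate lineage was high, and the 4 libraries between them were close together (a log2 fold change of 0.96 with SE 0.49, edgeR adjusted p = 0.714). Gpr52 (ENSMUSG00000118401), another orphan receptor found with the D2 receptor, had 2.82, 3.91 and 2.32 CPM in the saline libraries and 4.84, 4.25 and 7.21 CPM in the methylphenidate libraries, with no overlap (a log2 fold change of 0.85 with SE 0.28, edgeR adjusted p = 0.554). Gpr149 (ENSMUSG00000043441), also an orphan receptor, had 1.52, 0.664 and 0.992 CPM in the saline libraries and 1.37, 0.984 and 0.988 CPM in the methylphenidate libraries. It did not follow the other 3 receptors: the highest library was from the saline lineage (a log2 fold change of 0.07 with SE 0.41, edgeR adjusted p = 0.983).

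The regulators of G protein signalling, which speed the return of G proteins to rest, had log2 fold changes of opposite sign, with overlapping groups in both. Rgs9 (ENSMUSG00000020599), whose long brain form is concentrated in striatum, had 13.9, 8.83 and 6.37 CPM in the saline libraries and 31.5, 13.6 and 50.2 CPM in the methylphenidate libraries. Methylphenidate replicate 2 was just below saline replicate 1, and replicate 3 was at 5.18 times the saline mean (a log2 fold change of 1.71 with SE 0.42, edgeR adjusted p = 0.309). Rgs4 (ENSMUSG00000038530), which cortical neurons express strongly, had 520.3, 642 and 489 CPM in the saline libraries and 512, 514 and 384 CPM in the methylphenidate libraries. Replicate 3 of the methylphenidate lineage, the highest library for Rgs9, was the lowest for Rgs4, and the groups overlapped (a log2 fold change of -0.23 with SE 0.13, edgeR adjusted p = 0.749). As the printed windows show, the Rgs4 start region holds TGACG 2 times and that of Rgs9 does not hold it. Windows of Arpp21, Gng7 and Gpr6, whose log2 fold changes were above 0, also hold it. A link between this core and the level of a gene was not tested.

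Of the small GTPase and lipid signalling genes, 2 were nearly confined members and the rest were members of cortical neurons. Rasd2 (ENSMUSG00000034472), a Ras-like GTPase of striatum, had 64.9, 48.4 and 67.7 CPM in the saline libraries and 82.6, 66.1 and 102 CPM in the methylphenidate libraries, and methylphenidate replicate 2 lay just under saline replicate 3 (a log2 fold change of 0.47 with SE 0.16, edgeR adjusted p = 0.563). Rasgrp2 (ENSMUSG00000032946), which activates Rap1 in response to calcium and diacylglycerol, had 19.5, 12.5 and 13.5 CPM in the saline libraries and 24.0, 15.4 and 34.0 CPM in the methylphenidate libraries, with replicate 2 inside the saline range (a log2 fold change of 0.69 with SE 0.26, edgeR adjusted p = 0.606). In both genes it was replicate 3 of the methylphenidate lineage that stood clear of the rest. Rasgrp1 (ENSMUSG00000027347), the related activator of Ras, had 419.9, 433 and 406 CPM in the saline libraries and 404, 401 and 372 CPM in the methylphenidate libraries. It was the only member whose methylphenidate libraries were all below its saline libraries, by a narrow margin (a log2 fold change of -0.10 with SE 0.06, edgeR adjusted p = 0.776).

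Dgkb (ENSMUSG00000036095), a diacylglycerol kinase, had 95.1, 120.3 and 105 CPM in the saline libraries and 118, 121 and 125 CPM in the methylphenidate libraries, with overlap through saline replicate 2 (a log2 fold change of 0.18 with SE 0.09, edgeR adjusted p = 0.685). Tmem158 (ENSMUSG00000054871), a membrane protein gene first described as induced by Ras, had 33.8, 34.8 and 38.7 CPM in the saline libraries and 50.8, 47.2 and 63.0 CPM in the methylphenidate libraries. All 3 methylphenidate libraries lay above all saline libraries (a log2 fold change of 0.58 with SE 0.12, edgeR adjusted p = 0.212). Pcp4 (ENSMUSG00000090223), which binds calmodulin and marks deep cortical layers as well as striatum, had 151, 138 and 166 CPM in the saline libraries and 166, 135 and 171 CPM in the methylphenidate libraries. Its groups overlapped, and the sign turned without saline replicate 2 or methylphenidate replicate 3 (-0.01 in each case; a log2 fold change of 0.06 with SE 0.10, edgeR adjusted p = 0.941).

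Of the cytoskeletal and scaffold members, Actn2 and Nexn were of low level and Strip2 was not. Actn2 (ENSMUSG00000052374), an actin crosslinker that binds the NMDA receptor, had 7.42, 6.64 and 8.23 CPM in the saline libraries and 10.7, 10.1 and 16.9 CPM in the methylphenidate libraries, without overlap (a log2 fold change of 0.76 with SE 0.21, edgeR adjusted p = 0.397). Nexn (ENSMUSG00000039103), which binds actin filaments, had 3.01, 2.07 and 3.56 CPM in the saline libraries and 4.02, 3.09 and 5.64 CPM in the methylphenidate libraries, and methylphenidate replicate 2 stood below saline replicate 3 (a log2 fold change of 0.56 with SE 0.30, edgeR adjusted p = 0.729). Strip2 (ENSMUSG00000039629), of a phosphatase and kinase scaffold complex, had 26.4, 40.3 and 26.5 CPM in the saline libraries and 32.3, 30.0 and 32.7 CPM in the methylphenidate libraries. Its highest library was saline replicate 2, and the other 5 lay close together (a log2 fold change of 0.03 with SE 0.16, edgeR adjusted p = 0.982).

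The members with the largest log2 fold changes were genes of low level in the saline lineage. Lrrc10b (ENSMUSG00000090291), a leucine-rich repeat protein gene, had 5.56, 2.46 and 2.07 CPM in the saline libraries and 16.4, 7.59 and 46.0 CPM in the methylphenidate libraries. Methylphenidate replicate 3 reached 13.7 times the saline mean, while replicate 2 was at 2.26 times that mean (a log2 fold change of 2.79 with SE 0.61, edgeR adjusted p = 0.233). Syndig1l (ENSMUSG00000071234), a relative of a regulator of AMPA receptor synapses, had 5.18, 2.54 and 3.47 CPM in the saline libraries and 14.7, 8.39 and 33.8 CPM in the methylphenidate libraries, without overlap (a log2 fold change of 2.34 with SE 0.47, edgeR adjusted p = 0.216). Rxrg (ENSMUSG00000015843), a retinoid X receptor, had 1.68, 2.38 and 1.12 CPM in the saline libraries and 6.00, 3.23 and 11.0 CPM in the methylphenidate libraries, again without overlap (a log2 fold change of 1.96 with SE 0.44, edgeR adjusted p = 0.246). All 3 genes kept the same order of the methylphenidate libraries, with replicate 3 first, then 1, then 2.

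Ecel1 (ENSMUSG00000026247), a membrane peptidase of the endothelin-converting enzyme family, had 3.12, 3.12 and 3.64 CPM in the saline libraries and 9.19, 5.94 and 10.7 CPM in the methylphenidate libraries. The saline libraries were nearly equal and all 3 methylphenidate libraries were clearly above them (a log2 fold change of 1.38 with SE 0.24, edgeR adjusted p = 0.137). Sh3rf2 (ENSMUSG00000057719), a scaffold protein gene, had 0.761, 0.664 and 0.786 CPM in the saline libraries and 2.73, 1.16 and 5.35 CPM in the methylphenidate libraries, without overlap (a log2 fold change of 2.05 with SE 0.51, edgeR adjusted p = 0.316). Cd4 (ENSMUSG00000023274), known as the coreceptor of helper T cells, had 1.75, 0.664 and 0.579 CPM in the saline libraries and 2.90, 1.05 and 5.15 CPM in the methylphenidate libraries, with methylphenidate replicate 2 below saline replicate 1 (a log2 fold change of 1.59 with SE 0.60, edgeR adjusted p = 0.604). Ido1 (ENSMUSG00000031551), which opens the kynurenine route of tryptophan breakdown, was the lowest member, with 9 to 16 counts per saline library and 21, 13 and 49 counts in the methylphenidate libraries (a log2 fold change of 1.18 with SE 0.58, edgeR adjusted p = 0.696). In each of these 4 genes methylphenidate replicate 3 was the highest library.

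Levels between genes were compared per kilobase of exons, for 30 members with a length. The 20 nearly confined members had a median of 1.37 CPM per kilobase in the saline lineage and the 10 others 24.6. Some members went against the name of their set. Ppp1r1b, Adcy5, Rasd2 and Gnal had 38.6, 20.2, 19.0 and 16.3 CPM per kilobase, levels like those of Ptpn5 (25.7) or Dgkb (9.40), so the name was not borne out for these 4 in cortex libraries. Without the 9 borderline members the median log2 fold change of the nearly confined set was 1.65. A large fold is not a large amount. The difference of means was 83.8 CPM for Adcy5, 72.8 CPM for Ppp1r1b and 67.8 CPM for Gng7, all above the 20.0 CPM of Lrrc10b.

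**Figure D2:**
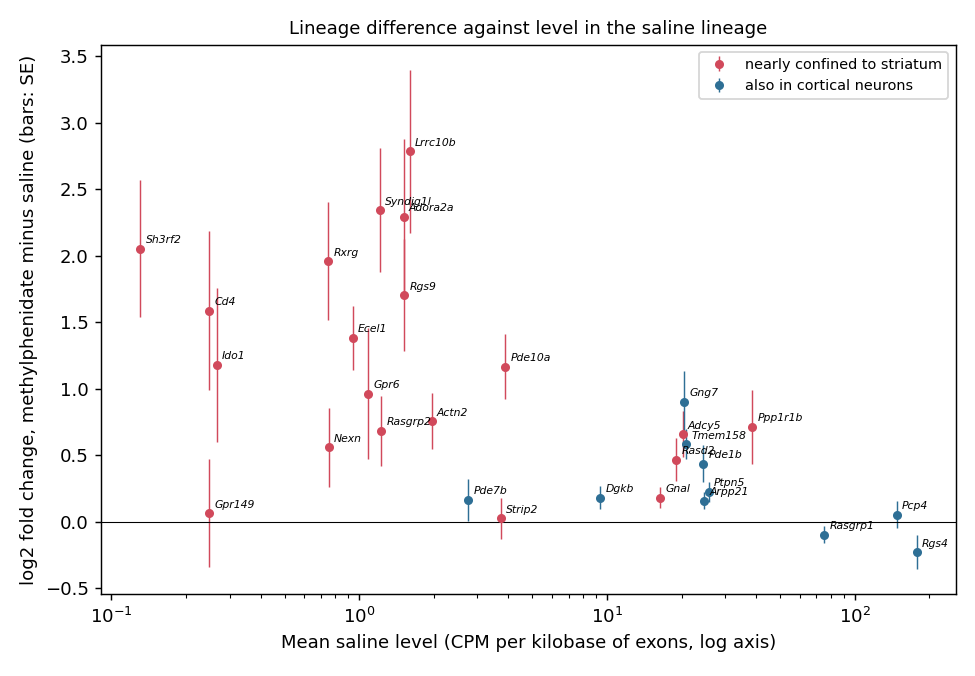
Each point is a member with its edgeR log2 fold change (methylphenidate minus saline, bars of 1 SE) against its mean saline level in CPM per kilobase on a log axis, red for nearly confined and blue for the others. Fold changes above 1 occur only at levels up to 3.88 CPM per kilobase, where Gpr149 and Strip2 nevertheless stay near 0; Gpr52 has no length and is not drawn.

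The members varied together within a lineage, where the grandsire's treatment was the same. In the methylphenidate lineage, replicate 3 was the highest library in 26 of 31 members and replicate 2 the lowest in 27, against 33.6% and 32.9% of all genes tested. In the saline lineage replicate 1 was the highest in 17 of 31, against 31.8% of all genes. Both orders held together in 14 members, and in 12.4% of all genes. The ratio of methylphenidate replicate 3 to replicate 2 had a median of 2.2 over the nearly confined members, from 1.00 in Gpr149 to 6.07 in Lrrc10b, and of 1.19 over the others, from 0.748 in Rgs4 to 2.13 in Gng7. The low place of methylphenidate replicate 2 was not particular to the members. It was also the lowest of its lineage in 11 of 12 oligodendrocyte and 9 of 10 astrocyte genes, but in only 4 of 20 cortical excitatory genes.

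The ratio of saline replicate 1 to replicate 3, from libraries that the former ratio does not use, was above 1 in 14 of the 21 nearly confined members. It was largest in Gpr6 (4.26), Adora2a (3.39), Cd4 (3.02), Lrrc10b (2.69) and Rgs9 (2.18). All 5 were also more than 2 times higher in methylphenidate replicate 3 than in replicate 2. Across the 31 members, which are not independent of each other, the log2 differences in the 2 pairs of libraries had a Pearson r of 0.636 and a Spearman rho of 0.541, as a description. Within the sets the values were lower, with r 0.572 and rho 0.535 over the 21 nearly confined members, 0.377 and 0.308 over the 12 of them not marked as borderline, and 0.373 and 0.236 over the 10 others. The pairs were chosen after the values were seen. In Nexn, Ecel1, Actn2, Rasd2, Sh3rf2, Gnal and Strip2 saline replicate 1 was not above saline replicate 3.

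**Figure D3:**
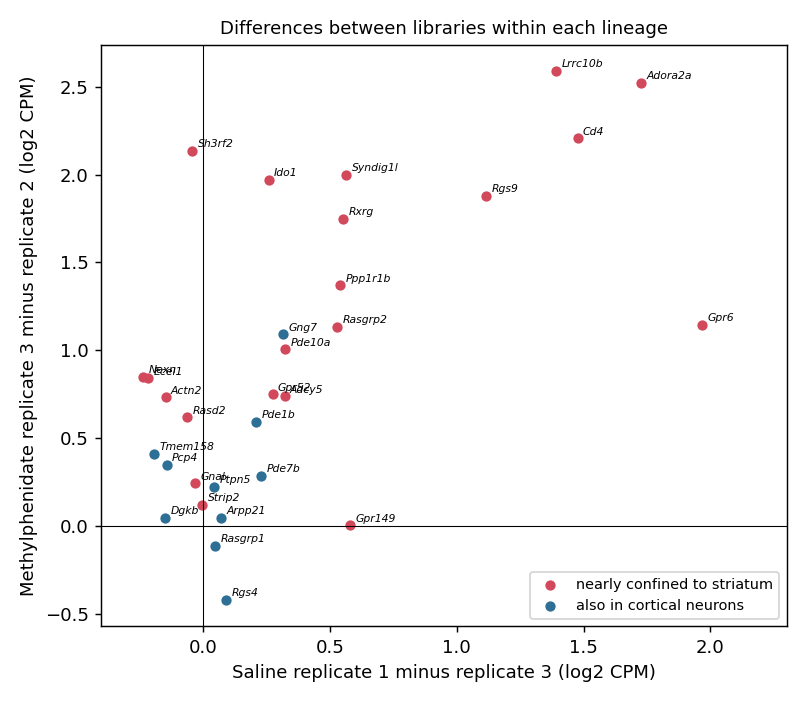
Each point is a member, placed by its log2 CPM difference between saline replicates 1 and 3 (horizontal) and between methylphenidate replicates 3 and 2 (vertical), red for nearly confined and blue for the others. Lrrc10b, Adora2a, Cd4, Rgs9 and Gpr6 are far from 0 on both axes, Sh3rf2 and Ido1 mainly on the vertical one, and Gpr149 on the horizontal one alone.

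Methylphenidate replicate 2 stood nearest to the saline lineage. It lay above the saline mean in 17 of 21 nearly confined members, with a median ratio of 1.32, and above every saline library in 9 of them. Replicates 1 and 3 each lay above every saline library in 19 of 21, with median ratios to the saline mean of 1.61 and 2.66. The exceptions were Gpr149 and Strip2 in both libraries. Over the 10 members of cortical neurons the median ratios in replicates 1, 2 and 3 were 1.15, 1.10 and 1.17.

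Genes that mark one of the 2 kinds of projection neuron followed in part. Drd2, the D2 receptor, had 3.62, 0.156 and 1.20 CPM in the saline libraries and 10.5, 4.53 and 21.3 CPM in the methylphenidate libraries, without overlap (a log2 fold change of 2.86 with SE 0.78, edgeR adjusted p = 0.389). Penk, the enkephalin precursor of indirect-pathway neurons, had 45.8, 35.7 and 26.9 CPM in the saline libraries and 92.3, 53.5 and 157 CPM in the methylphenidate libraries, also without overlap (a log2 fold change of 1.48 with SE 0.33, edgeR adjusted p = 0.246). Both had the order of replicates 3, 1 and 2 seen in the members. The D2 list of 7 genes had 6 tested, with 4 above 0, 2 below, none called by edgeR, DESeq2 or limma-voom, 3 higher and 1 lower at an unadjusted p under 0.05, and a median of 0.37. Its summed level was 201 to 244 CPM in the saline and 255 to 368 CPM in the methylphenidate libraries, and Upb1 was at 0 in 5 libraries.

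Drd1, the D1 receptor, had 8.87, 8.83 and 6.82 CPM in the saline libraries and 15.9, 11.7 and 20.7 CPM in the methylphenidate libraries (a log2 fold change of 0.98 with SE 0.21, edgeR adjusted p = 0.226). Tac1, the substance P precursor of direct-pathway neurons, had 12.0, 13.4 and 9.97 CPM in the saline libraries and 17.3, 11.9 and 22.8 CPM in the methylphenidate libraries (a log2 fold change of 0.55 with SE 0.22, edgeR adjusted p = 0.610). Pdyn, the dynorphin precursor of the same neurons, had 22.9, 25.6 and 23.3 CPM in the saline libraries and 22.0, 20.3 and 26.4 CPM in the methylphenidate libraries and did not stand apart (a log2 fold change of -0.06 with SE 0.12, edgeR adjusted p = 0.939). Of the 9 genes of the D1 list 8 were tested, with 5 above 0, 3 below, none called by edgeR or limma-voom and 2 higher by DESeq2 (Drd1 and Slc35d3), 3 higher and none lower at an unadjusted p under 0.05, and a median of 0.13. The summed level was 119.6 to 131 CPM in the saline and 130.2 to 161 CPM in the methylphenidate libraries, and Isl1 was at 0 in saline replicate 3.

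Of 16 transcription factors of striatal neurons 14 were tested, with 9 above 0, 5 below and a median of 0.26. None was called by edgeR or limma-voom, 3 were higher by DESeq2 (Six3, Foxo1 and Bcl11b), and 6 were higher and none lower at an unadjusted p under 0.05. Six3, needed for the making of indirect-pathway neurons, had 0.876, 0.273 and 0.331 CPM in the saline libraries and 7.54, 1.26 and 3.42 CPM in the methylphenidate libraries, and here replicate 1 of the methylphenidate lineage was the highest (a log2 fold change of 3.02 with SE 0.67, edgeR adjusted p = 0.236). Bcl11b, which striatal and deep-layer cortical neurons share, had 47.9, 47.2 and 46.9 CPM in the saline libraries and 54.6, 64.4 and 84.7 CPM in the methylphenidate libraries (a log2 fold change of 0.52 with SE 0.14, edgeR adjusted p = 0.363). Of 19 further striatal genes 16 were tested, with 13 above 0, 3 below and a median of 0.29. None was called by edgeR or limma-voom, 2 were higher by DESeq2, and 7 were higher and none lower at an unadjusted p under 0.05.

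The wider dopamine and cAMP pathway divided evenly by direction. Of its 30 genes, all tested and none a member, 15 lay above 0 and 15 below, with a median of 0.00. None was called by edgeR or limma-voom, 2 were higher by DESeq2, and 7 were higher and 2 lower at an unadjusted p under 0.05. Cnr1, the cannabinoid receptor, had 121, 145 and 135 CPM in the saline libraries and 157, 156 and 168 CPM in the methylphenidate libraries (a log2 fold change of 0.27 with SE 0.08, edgeR adjusted p = 0.460).

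**Figure D4:**
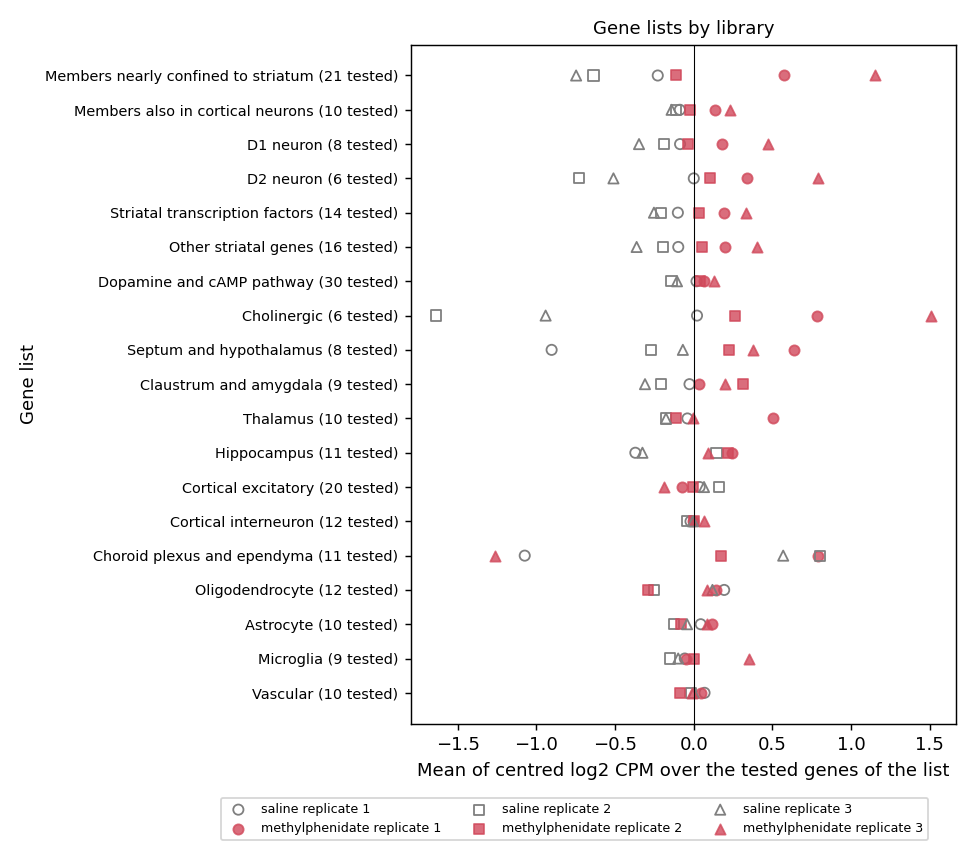
Each row is a gene list and each point a library, placed by the mean of log2 CPM (prior count of 2) over the tested genes of the list after centring each gene (open grey, saline; filled red, methylphenidate; circle, square and triangle for replicates 1, 2 and 3). The nearly confined members order the methylphenidate libraries as 3, 1 and 2, as do the members also in cortical neurons. The D1, D2, striatal transcription factor, other striatal, dopamine and cAMP pathway and cholinergic lists have the same order. The cortical excitatory list has replicate 3 lowest.

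The libraries carried cortical markers. Slc17a7, named after its values were seen, the glutamate transporter of cortical excitatory neurons, lay between 1020.3 and 1249 CPM in all 6 libraries. Of the 20 cortical excitatory genes, all tested, 17 lay below 0 and 3 above, with a median of -0.16. None was called by edgeR or limma-voom, 2 were lower by DESeq2, and none was higher and 7 lower at an unadjusted p under 0.05. The summed level was 7496 to 7729 CPM in the saline and 7242 to 7517 CPM in the methylphenidate libraries, and no marker was at 0. The 12 cortical interneuron genes had a median of 0.03, and none was called by edgeR, DESeq2 or limma-voom, with 2 higher and 1 lower at an unadjusted p under 0.05. Slc32a1, the GABA transporter of synaptic vesicles that projection neurons also use, had 95.7, 89.4 and 93.0 CPM in the saline libraries and 95.3, 99.7 and 119 CPM in the methylphenidate libraries. Their summed level was 1356 to 1425 CPM in the saline and 1391 to 1470.4 CPM in the methylphenidate libraries.

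Markers of other regions near the striatum followed the members in part. All 6 tested of 8 cholinergic genes lay above 0, with a median of 2.00, none called by edgeR or limma-voom, 1 higher by DESeq2 (Slc5a7), 3 higher and none lower at an unadjusted p under 0.05, and a summed level of 3.05 to 6.24 CPM in the saline and 7.13 to 17.5 CPM in the methylphenidate libraries. Lhx8, Nkx2-1 and Gbx2 of that list were at 0 in 3, 2 and 1 of the libraries. Slc5a7, the choline transporter, had 0.761, 1.02 and 0.91 CPM in the saline libraries and 4.18, 1.65 and 5.97 CPM in the methylphenidate libraries (a log2 fold change of 2.13 with SE 0.45, edgeR adjusted p = 0.226). The septal and hypothalamic list had a median of 1.08 over 8 tested genes and a summed level of 25.4 to 45.5 CPM in the saline and 33.6 to 47.6 CPM in the methylphenidate libraries, but there saline replicate 1 was lowest. The claustrum and amygdala list had a median of 0.25 over 9 genes, the thalamic list 0.24 over 10 and the hippocampal list 0.36 over 11, and in none of these 4 lists was methylphenidate replicate 3 the highest library by the mean of centred log2 CPM. EdgeR called 2 genes of the hippocampal list, Nnat and Cpne7, and none of the other 3. These 2 were among the 5 genes that edgeR called over all genes. The lists were chosen with earlier results of these data known, so the calls are not a test of the hippocampal list. Limma-voom called 2 of the hippocampal list and none of the other 3. At an unadjusted p under 0.05, 3 genes of the septal and hypothalamic, 4 of the claustrum and amygdala, 1 of the thalamic and 4 of the hippocampal list were higher and none lower, and DESeq2 called 1, 2, 1 and 4. The claustrum and amygdala sum was 413 to 486 CPM in the saline and 494 to 594 CPM in the methylphenidate libraries. The thalamic sum was 193 to 214 CPM in the saline and 191 to 259.7 CPM in the methylphenidate libraries. The hippocampal sum was 246 to 263 CPM in the saline and 386 to 412 CPM in the methylphenidate libraries. Of the septal and hypothalamic list 7 genes were at 0 in at least 1 library, among them Hcrt in all 3 saline libraries, and of the hippocampal list Iyd was at 0 in 2 libraries. The part of these regions in the result was not tested.

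Ttr, the transthyretin gene of choroid plexus, named after its values were seen, had 36.4, 586 and 376 CPM in the saline libraries and 459, 177 and 16.8 CPM in the methylphenidate libraries, so that saline replicate 1 and methylphenidate replicate 3, the highest libraries of their lineages in most members, were the lowest. Ccdc153, a gene of ciliated ependymal cells in the same list, did not have this order and was highest of the saline lineage in replicate 1. The list of 11 had a median of -0.57 and a summed level of 55.3 to 677 CPM in the saline and 35.7 to 521 CPM in the methylphenidate libraries, with Tmem212 at 0 in saline replicate 2. Its part in the result was not tested. Oligodendrocyte, astrocyte and vascular genes had medians of -0.03, 0.10 and -0.03 over 12, 10 and 10 genes. The oligodendrocyte sum was 5810.4 to 7967 CPM in the saline and 5873 to 7938 CPM in the methylphenidate libraries, lowest in replicate 2 of each lineage. The astrocyte sum was 4991 to 5672 CPM in the saline and 5008 to 5839 CPM in the methylphenidate libraries, and the vascular sum was 381 to 416 CPM in the saline and 362 to 397 CPM in the methylphenidate libraries.

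Some members share exons with another gene in GENCODE M21, and the sources used here do not say how the counting treated strand. An antisense neighbour had 325 to 512 counts at Gnal (Mppe1), 200 to 366 at Arpp21 (2900079G21Rik) and 7 to 27 at Ppp1r1b (1700003D09Rik), while 4 further members, Nexn, Pcp4, Rasgrp2 and Syndig1l, overlap other genes. The values of these 7 of 30 members are uncertain to the extent that reads were split or shared.

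Because Cd4 and Ido1 are also immune genes, immune markers were read beside them. Of 8 T cell genes 5 had a row and 3 were tested, with a summed level of 2.15 to 3.35 CPM in the saline and 2.80 to 3.56 CPM in the methylphenidate libraries. Cd3e, the defining gene of T cells, had 1 count in 1 library and 0 in the other 5. The 9 microglial genes had a median of 0.09 and a summed level of 369 to 394 CPM in the saline and 372 to 483 CPM in the methylphenidate libraries, with methylphenidate replicate 3 the highest in 8 of them. Of these genes 7 lay above 0 and 2 below. None was called by edgeR or limma-voom, 1 was higher by DESeq2, and 2 were higher and none lower at an unadjusted p under 0.05. The smallest p was that of Aif1 (a log2 fold change of 0.93 with SE 0.20, edgeR adjusted p = 0.226). In methylphenidate replicate 3, Cd4 was 5.16 times its saline mean, Csf1r, a receptor of microglia, 1.33 times and Aif1 1.96 times. The part of microglia in the level of Cd4 was not tested.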

How the data were processed

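The authors deposited 1 table of gene-level read counts for the 6 libraries. Poly(A) RNA was taken from cerebral cortex and the library kit kept strand, per the labels' protocols. Per the submitters' processing notes, bcl2fastq 2.19, fastp 0.23.4, HISAT2 2.2.1, StringTie 2.2.1 and GRCm39 were used, with no roles given, and the annotation release and the strand setting of the counting are not stated in the sources used here. Of 33274 rows, 985 had no symbol (0.131% to 0.175% of the counts), and these were kept in library sizes and tests. Samples were grouped by the labelled treatment of the grandsire.

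Counts were scaled by TMM in edgeR 4.0.16 (R 4.3.3), filtered with its default rule to 18327 genes, and tested with its quasi-likelihood test, methylphenidate against saline, 3 against 3, with Benjamini-Hochberg adjustment over all genes tested and a threshold of 0.05. The median SE of a log2 fold change was 0.15. A count of 3 in a library equalled 0.105 to 0.124 CPM. Log2 fold changes of genes with few counts depend on edgeR's prior count. Libraries of a group differed by more than counting noise (chi-square per degree of freedom 13.0 to 19.9). Alternatives were other scalings and filters, DESeq2 1.42.0, voom in limma 3.58.1, library sizes without mitochondrially encoded genes, a replicate block, and leaving out each library. The scripts were checked on simulated counts.

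The members and gene lists were chosen with earlier results of these data known. Every member could be named, and from each other list up to 4 tested genes of smallest p, besides Drd1, Drd2, Penk, Tac1, Pdyn and Six3. Exon lengths came from GENCODE M21, and start regions from RefSeq. Differences between sets of members were not tested, and no test of a set was made. Values of some single genes of these lists are not reported here.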

Additional observations from a re-analysis of the deposited data

How the results depend on the processing

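The count of members called by edgeR at an adjusted p under 0.05 was 0 and stayed 0 under 3 other scalings, both filters, limma-voom, library sizes without mitochondrially encoded genes, and an adjusted p under 0.10, which was chosen after seeing the data. It was 5 with DESeq2 and ranged from 0 to 2 when 1 library was left out, with 2 only without methylphenidate replicate 2. Over all genes the count was 5, against 10 with total-count scaling, 3 without a filter, 149 with DESeq2 and 11 at an adjusted p under 0.10. It ranged from 2 without methylphenidate replicate 3 to 26 without methylphenidate replicate 1. Leaving out saline replicate 2 or 3 gave 3 or 8 genes, and leaving out methylphenidate replicate 2 gave 12.

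The median log2 fold change of the nearly confined members ranged from 0.52 without methylphenidate replicate 3 to 1.32 without saline replicate 1, and was 1.65 without the borderline members. That of the members of cortical neurons ranged from 0.16 to 0.24 with 1 library left out, was 0.47 with the borderline members added, and 0.16 without Gng7, the last chosen after seeing the data. Of 464 member values under 15 alternatives, 7 changed sign, in Gpr149, Strip2, Pcp4 and Pde7b, and 27 members had no change of sign. Ido1 was not tested under the stricter filter.

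Libraries of the same number share only a number in the labels, and their deviations from the group means had correlations of -0.044, 0.091 and -0.024. With the replicate number as a block, 2 genes and 0 members were called, and the median of the nearly confined members was 0.99. With 3 libraries in each lineage, the spread between libraries, which exceeded counting noise, limits what the test can call.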
